A study of Mus musculus with 6 samples.

Results

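The 10 genes described here, Fos, Fosb, Jun, Junb, Jund, Egr1, Ier2, Atf3, Dusp1 and Nr4a1, encode AP-1 subunits and other products of the immediate early response. They were chosen by symbol from a table of RNA-seq read counts per gene. All 10 were found, and all 10 were among the 14756 genes with enough counts to be tested over the whole series. The table holds 6 mouse libraries, 3 of the genotype Hes1KO and 3 labelled WT, whose labels give the cells as mesenchymal stromal cells (MSC) of bone marrow, a supporting cell of bone and marrow. Per the labels' protocols, the animals are of the C57BL/6 background, heterozygous Hes1fl/+ mice were crossed to the Prx1Cre line, and Cre is driven there by Prx1 promoter sequences active in limb bud and part of the craniofacial mesenchyme. How many Hes1 alleles were deleted, whether WT animals carried Cre, the animals' age and any pooling of animals are not stated in the labels. The p-values below therefore measure the spread between these libraries, which may be technical.

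AP-1 is a transcription factor made of pairs of proteins of the Fos and Jun families. Jun proteins can pair with each other, while Fos proteins need a Jun partner to bind DNA. Immediate early genes are switched on within minutes by growth factors, cytokines, stress and the handling of cells, through MAP kinases and without new protein synthesis, and their messages are short-lived. Nuclear factors of the NFAT family, one of which is named in the series title, bind together with AP-1 at many cytokine genes. Jund is regarded as the most constitutive Jun gene, less dependent on acute stimulation than Fos or Junb.

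The start sites of 4 genes are shown for orientation: Fos and Jun, the leading Fos and Jun subunits, Dusp1, whose window holds a complete cAMP response element, and Nr4a1, whose window holds the most short matches to that element. Each window runs from 250 bases before to 50 bases after the start in RefSeq (GRCm38.p6) and is written 5′ to 3′ on the gene's strand. The windows are chr12:85473640-85473939 (plus strand) for Fos, chr4:95052173-95052472 (minus) for Jun, chr17:26508423-26508722 (minus) for Dusp1 and chr15:101266596-101266895 (plus) for Nr4a1. Capitals mark matches on either strand to the cAMP response element TGACGTCA, its relaxed form TGACNTCA, its core TGACG, the AP-1 site TGANTCA, the TATA box TATAAA, or the CArG box that serum response factor binds.
Fos: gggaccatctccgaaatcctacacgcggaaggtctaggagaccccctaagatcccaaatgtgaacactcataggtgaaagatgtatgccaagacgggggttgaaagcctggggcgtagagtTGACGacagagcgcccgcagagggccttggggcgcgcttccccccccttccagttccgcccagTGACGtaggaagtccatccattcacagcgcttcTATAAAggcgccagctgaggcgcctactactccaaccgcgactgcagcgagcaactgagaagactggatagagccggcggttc
Jun: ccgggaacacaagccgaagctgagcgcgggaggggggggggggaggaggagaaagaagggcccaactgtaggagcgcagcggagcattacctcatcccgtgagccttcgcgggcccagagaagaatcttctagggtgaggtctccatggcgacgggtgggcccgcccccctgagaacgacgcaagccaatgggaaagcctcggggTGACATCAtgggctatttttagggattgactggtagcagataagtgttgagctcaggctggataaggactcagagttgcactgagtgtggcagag
Dusp1: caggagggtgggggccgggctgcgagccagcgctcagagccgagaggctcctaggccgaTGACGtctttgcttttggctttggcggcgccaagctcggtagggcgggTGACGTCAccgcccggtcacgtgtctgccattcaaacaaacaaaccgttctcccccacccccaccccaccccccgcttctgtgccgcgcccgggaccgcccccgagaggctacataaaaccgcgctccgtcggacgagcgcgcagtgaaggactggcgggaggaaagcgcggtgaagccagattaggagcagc
Nr4a1: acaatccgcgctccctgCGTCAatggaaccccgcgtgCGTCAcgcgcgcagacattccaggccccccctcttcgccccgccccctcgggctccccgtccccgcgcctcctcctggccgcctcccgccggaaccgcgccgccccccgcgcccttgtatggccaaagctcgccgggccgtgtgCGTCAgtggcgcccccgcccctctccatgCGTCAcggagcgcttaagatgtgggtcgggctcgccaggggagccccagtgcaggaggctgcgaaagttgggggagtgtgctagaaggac

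RefSeq windows matched 8 of the 10 symbols (not Egr1 and Ier2). Of these, the window of Jund was set on a start that lies 1210 bases from the nearest transcript start in GENCODE M21, so it is not shown. TGACG occurred in the windows of Atf3, Dusp1, Fos, Fosb, Junb and Nr4a1, 6 of 8, against 20.8% of all 32851 windows. The complete TGACGTCA occurred in Dusp1 alone, against 1.79% of windows, and TGACNTCA, which includes it, in Dusp1 and Jun, against 8.83%. TATAAA occurred in Fos and Junb (13.6% of windows). No member window held TGANTCA (7.81% of windows) or a CArG box (1.63%). The 8 windows include that of Jund, and sequence outside the windows was not searched. Such a match is a description of the letters in this window and not a site shown to be bound, and TGACNTCA was added after the sequences had been seen.

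The Hes1 KO libraries held 20563116 to 22131465 counts, and the deeper WT libraries, replicates 2 and 3, held 5812598 and 12109170. WT replicate 1 held 66167 counts, so that 1 count there is worth 15.1 CPM (counts per 1000000 counts of the library), and its values are given apart with Wilson 95% intervals or, for a count of 0, with the limit that 3 counts set. Both cover counting error only. Both groups held few stromal transcripts: 14 stromal markers summed to 0.01% to 0.0133% of counts in Hes1 KO and 0.00326% to 0.0115% in WT, and Prrx1, whose promoter drives the Cre, had 0 to 2 counts per library. Neutrophil markers (15 genes) took 4.98% to 13.2% in Hes1 KO and 0.0368% to 1.56% in WT, and 14 macrophage markers took 1.02% to 2.01% and 0.0174% to 0.456%. Erythroid markers took 42.4% of WT replicate 3 and at most 0.312% of any other library. B cell markers (9 genes) took 0.574% and 0.285% of WT replicates 2 and 3, 0.0196% of WT replicate 1 and 0.0943% to 0.164% in Hes1 KO. In WT replicate 2 the nuclear RNA Malat1 stood at 13895 CPM, against at most 3340 CPM elsewhere. In such bulk samples, fewer cells of a type and less RNA per cell cannot be told apart. The targeted gene, Hes1, was counted 185 to 255 times per library in Hes1 KO (8.36 to 12.4 CPM), 310 and 345 times in the deeper WT libraries (53.3 and 28.5 CPM) and 0 times in WT replicate 1, which allows 45.3 CPM.

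Transcripts of the 10 genes were abundant in every library. Their counts summed to 3712, 3304 and 2831 CPM in Hes1 KO replicates 1, 2 and 3. The WT sums were 4307 CPM for replicate 1, 4571 CPM for replicate 2 and 1342 CPM for replicate 3. The lowest sum was that of WT replicate 3, the library rich in erythroid transcripts, and all 3 Hes1 KO sums lay between it and those of WT replicates 1 and 2. The tests used edgeR's TMM scaling, which is meant for libraries in which a few transcripts take a large share. It gave WT replicate 3 a factor of 0.445 and the other 4 deeper libraries factors of 1.05 to 1.37.

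With all 6 libraries, none of the 10 genes passed an adjusted p of 0.05 in edgeR, and 0 of 10 had an unadjusted p under 0.05. DESeq2 and limma-voom also called 0 of 10. Over all 14756 genes, edgeR called 0%, although 14.9% had an unadjusted p under 0.05. limma-voom called 0 genes, and DESeq2 called 813 of the 13667 to which it gave an adjusted p (5.95% in either direction, 4.25% lower in Hes1 KO). Fitted levels of 6 of the 10 were higher in Hes1 KO and those of 4 lower, and the median of their log2 fold changes was 0.21, against 0.03 over all genes tested. When WT replicate 1 was left out, 1 of the 10 passed, Jund, which fell, and the same gene alone had an unadjusted p under 0.05. In that fit of 5 libraries 15.5% of 16190 genes passed, 7.44% that rose and 8.09% that fell, and 39.8% had an unadjusted p under 0.05. A single call among 10 genes is thus near the share over all genes. The 10 genes had a median log2 fold change of 0.41 there, against 0.02 over all genes tested. The 2513 calls of the 5-library fit went down to 0 genes when any 1 of the Hes1 KO libraries was left out too.

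**Figure D1:**
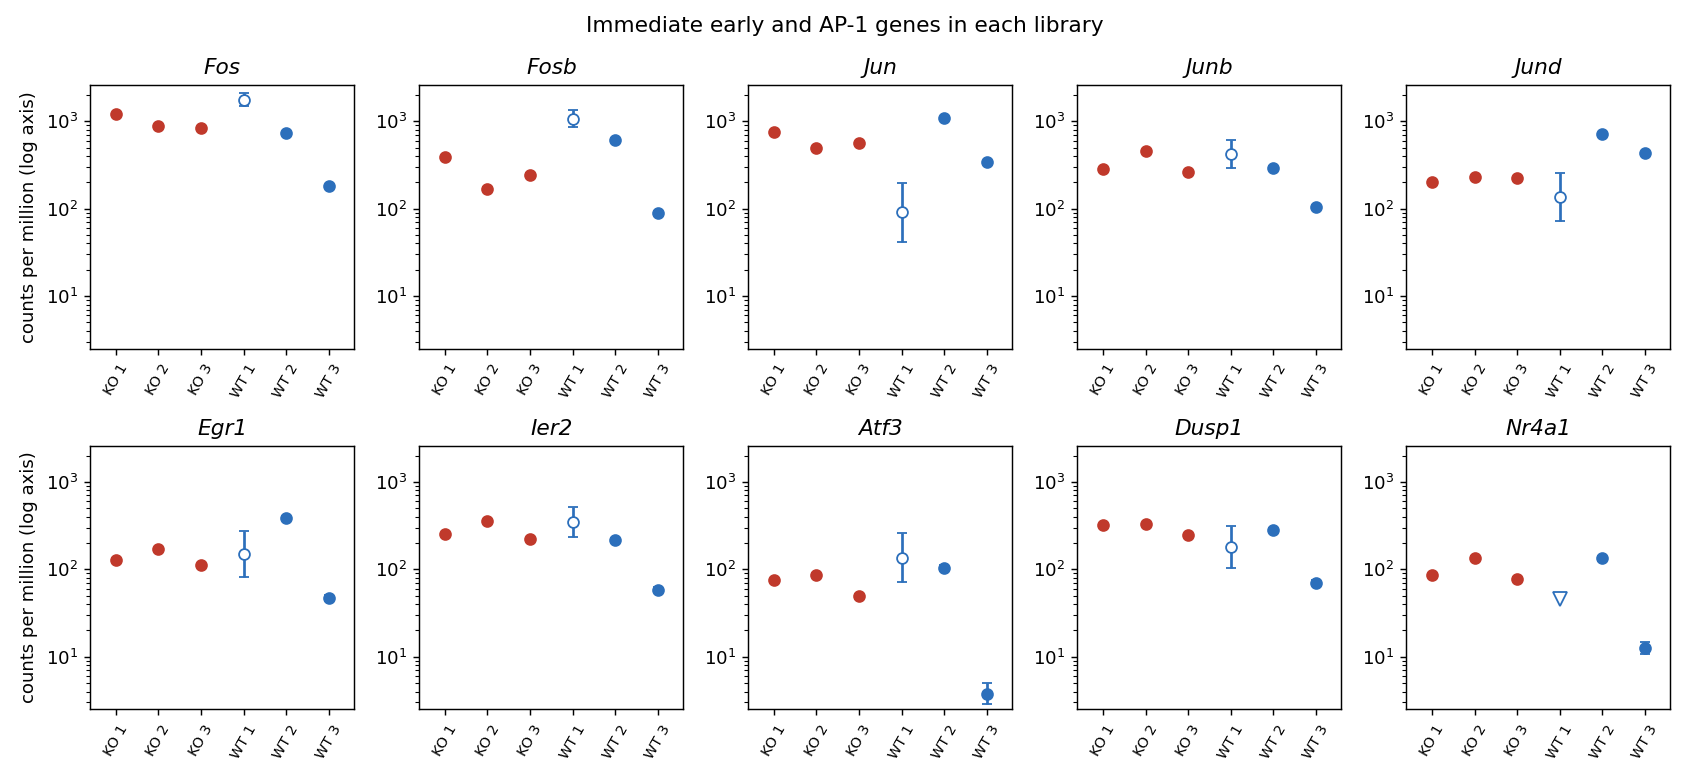
CPM (log axis) of each gene in each library, Hes1 KO in red and WT in blue; bars are Wilson 95% intervals, open symbols are WT replicate 1, and the triangle for Nr4a1 marks the 45.3 CPM that a count of 0 allows there. Jund is higher in WT replicates 2 and 3 (714 and 433 CPM) than in all Hes1 KO libraries (201 to 231 CPM), while Fos is lower in both (739.9 and 180.2 CPM against 835 to 1211 CPM).

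Fos, the AP-1 subunit that gives the family its name, was counted 26805, 18424 and 17174 times in Hes1 KO replicates 1, 2 and 3, or 1211, 870.3 and 835 CPM (mean 972 ± 208 SD, n = 3). In WT it was at 739.9 CPM (4301 counts) in replicate 2 and 180.2 CPM (2182 counts) in replicate 3. The 117 counts of WT replicate 1 make 1768 CPM (1476 to 2119). Both deeper WT libraries thus lay below every Hes1 KO library, and the shallow one above every one. The same held after TMM scaling, at 675 to 960.2 CPM in Hes1 KO against 544 and 406 CPM in WT replicates 2 and 3. The log2 fold change of Fos was 0.29 (SE 0.55) with 6 libraries and 0.79 (SE 0.37) with 5, and neither passed (edgeR, Benjamini-Hochberg adjusted p = 0.821 and 0.168).

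Fosb, the closest relative of Fos among the 10, was at 393, 169.7 and 245 CPM in Hes1 KO (mean 269 ± 113 SD, n = 3) and at 616 and 89.0 CPM in the deeper WT libraries. WT replicate 1 had 71 counts, or 1073 CPM (851 to 1353). The 2 deeper WT libraries lay on either side of the Hes1 KO range, so the groups overlapped. The log2 fold change was -0.96 (SE 0.53) with 6 libraries and -0.55 (SE 0.45) with 5 (edgeR, Benjamini-Hochberg adjusted p = 0.426 and 0.398). Fos and Fosb thus had fitted differences of opposite sign, neither of which passed.

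Jun, the founding Jun subunit, was counted 16824, 10505 and 11488 times in Hes1 KO, or 760.2, 496 and 559 CPM (mean 605 ± 138 SD, n = 3). It was at 1078 CPM (6267 counts) in WT replicate 2 and at 343 CPM (4156 counts) in WT replicate 3. WT replicate 1 had 6 counts, or 90.7 CPM (41.6 to 198), the lowest value of all. On the CPM scale the groups overlapped, whereas after TMM scaling both deeper WT libraries, at 792 and 773 CPM, lay above the 452 to 603 CPM of Hes1 KO. Hes1 KO differed from WT by a log2 fold change of -0.15 (SE 0.86) with 6 libraries and -0.62 (SE 0.32) with 5, and neither passed (edgeR, Benjamini-Hochberg adjusted p = 0.945 and 0.203). DESeq2 called Jun lower in the 5-library fit (DESeq2, Benjamini-Hochberg adjusted p = 0.0312), where it called 30.9% of all genes, 18.2% lower.

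Junb, a Jun subunit often opposed to Jun in cell growth, was at 286, 459 and 260.3 CPM in Hes1 KO and at 295 and 104 CPM in the deeper WT libraries, with 28 counts or 423 CPM (293 to 612) in WT replicate 1. Hes1 KO replicate 2 was the highest of the 6, and the groups overlapped. Its log2 fold change was 0.29 (SE 0.43) with 6 libraries and 0.37 (SE 0.39) with 5 (edgeR, Benjamini-Hochberg adjusted p = 0.771 and 0.508). Without Hes1 KO replicate 2 the sign turned, to -0.23 and -0.16.

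Jund was the member that passed. It was counted 4447, 4892 and 4610 times in Hes1 KO, or 201, 231 and 224 CPM (mean 219 ± 15.8 SD, n = 3), the narrowest spread of any member in that group relative to its mean. WT replicate 2 had 4152 counts (714 CPM, 693 to 736) and WT replicate 3 had 5240 (433 CPM, 421 to 445). Both lay above every Hes1 KO library, and after TMM scaling they stood at 525 and 974 CPM against 159 to 219 CPM. WT replicate 1 went the other way, with 9 counts or 136 CPM (71.6 to 259), an interval that takes in the Hes1 KO values. Its log2 fold change in the 5-library fit was -2.01, with an SE of 0.36, and it passed (edgeR, Benjamini-Hochberg adjusted p = 0.0322). With 6 libraries the log2 fold change was -1.56 (SE 0.79) and did not pass (edgeR, Benjamini-Hochberg adjusted p = 0.391).

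**Figure D2:**
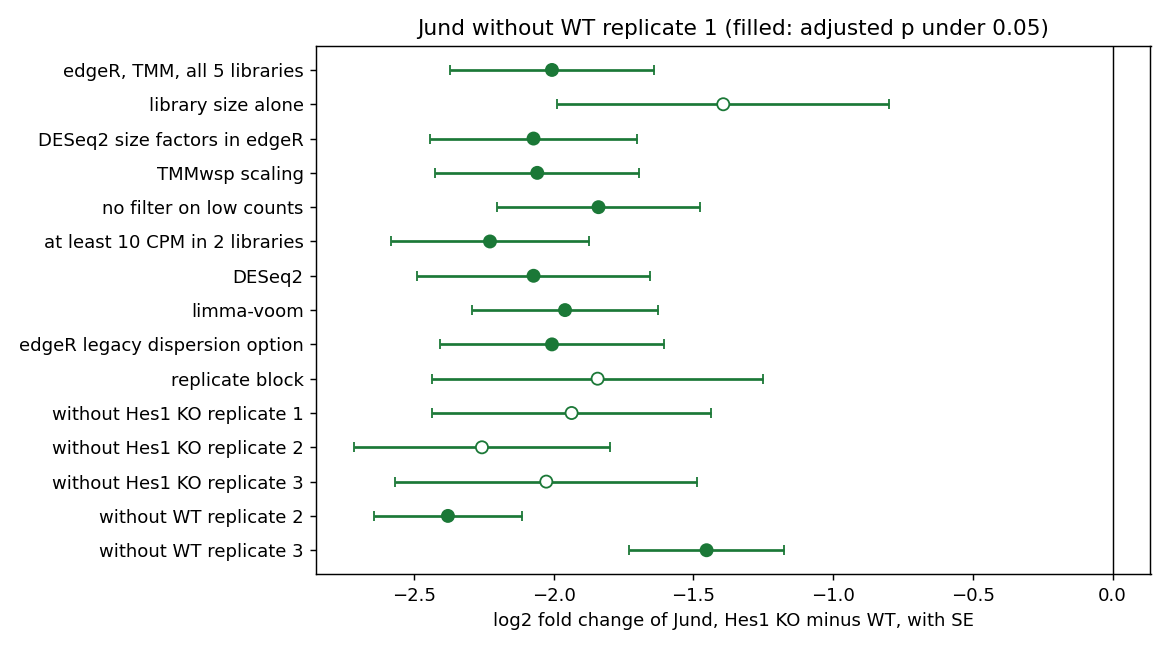
Log2 fold change of Jund between Hes1 KO and WT (with its SE) when WT replicate 1 is left out, for the fit described and each alternative; filled points passed an adjusted p of 0.05. Every estimate is below 0, from -2.38 to -1.39, and 9 of the 14 alternatives passed.

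The fall of Jund kept its sign in all 14 alternatives of the 5-library fit and passed in 9, shown in the plot of its fold change by setting. Without WT replicate 2, the library rich in Malat1, the log2 fold change of Jund was -2.38. Without WT replicate 3, the erythroid one, it was -1.45. Both fits are among the 9, but each keeps 1 WT library, so its call takes in no spread within WT. Among the 5 that lost the call were library size in place of TMM (-1.39, edgeR, Benjamini-Hochberg adjusted p = 0.213) and the fits without Hes1 KO replicate 1, 2 or 3 (-1.94, -2.26 and -2.03, edgeR, Benjamini-Hochberg adjusted p = 0.142, 0.112 and 0.127). Of the 5 libraries, WT replicates 2 and 3 had 205 and 42.2 CPM of the Y-linked Ddx3y, and Hes1 KO replicates 1, 2 and 3 had 1.27, 61.9 and 0.146 CPM. The X-linked Xist took 1221 CPM of Hes1 KO replicate 1, 11.0 CPM of replicate 2 and 1004 CPM of replicate 3. WT replicate 2 held 3.10 CPM of Xist, while WT replicate 3, with its 42.2 CPM of Ddx3y, held 71.9 CPM. Hes1 KO replicate 2, the highest of its group in Ddx3y, had 219 TMM-scaled CPM of Jund, below both WT libraries. That comparison rests on 1 library, and the part of sex in the fall of Jund was not tested. As shares of counts without TMM factors, several marker sums separated the same groups in these 5 libraries. On that scale WT replicate 2 held more Jund than WT replicate 3 (714 against 433 CPM). It also held a larger share of B cell markers (0.574% against 0.285%). After TMM scaling WT replicate 3 held more Jund (974 against 525 CPM), and the marker sums were not scaled in this way. B cell markers took at most 0.164% of each Hes1 KO library and at least 0.285% of each deeper WT library. Neutrophil markers took at least 4.98% against at most 1.56%, and macrophage markers at least 1.02% against at most 0.209%. T and NK cell markers took at least 0.00724% against at most 0.0032%, and megakaryocyte markers at least 0.00479% against at most 0.00255%. The shares in WT replicate 3 are lowered by its 42.4% of erythroid counts, for which its TMM factor is 0.445. In the scaled 5-library fit, 1 of 8 T and NK cell genes tested rose (Nkg7) and 0 of 4 megakaryocyte genes tested passed. Ncr1 and Klrb1c of the T and NK cell list had log2 fold changes below 0. In these 5 libraries no marker of the B cell, neutrophil and macrophage lists was at 0, except C1qb, C1qc and Mertk of the macrophage list in WT replicate 2. Of the B cell list 3 of 9 genes fell and 0 rose, of the neutrophil list 1 of 15 rose, and of the macrophage list 5 of 11 tested rose. Beside these counts stand the 7.44% of all genes tested that rose and the 8.09% that fell, and the neutrophil count is near the share that rose. The part of these cell types in the fall of Jund was not tested.

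Among the factors outside AP-1, Egr1, a zinc finger protein induced with Fos, was at 129, 169 and 112 CPM in Hes1 KO and at 389.7 and 47.4 CPM in the deeper WT libraries. WT replicate 1 had 10 counts, or 151 CPM (82.1 to 278). The Hes1 KO values lay between those of the deeper WT libraries. The log2 fold change was -0.51 (SE 0.54) with 6 libraries and -0.74 (SE 0.47) with 5 (edgeR, Benjamini-Hochberg adjusted p = 0.668 and 0.283), and without WT replicate 2 it turned to 0.13 and 0.15.

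Ier2, a small nuclear protein of the immediate early response, was at 251, 355 and 219.9 CPM in Hes1 KO and at 216 and 58.6 CPM in the deeper WT libraries, with 23 counts or 348 CPM (232 to 522) in WT replicate 1. As for Fos, both deeper WT libraries lay below every Hes1 KO library, although WT replicate 2 came close to Hes1 KO replicate 3. Hes1 KO differed from WT by a log2 fold change of 0.50 (SE 0.41) with 6 libraries and 0.71 (SE 0.35) with 5 (edgeR, Benjamini-Hochberg adjusted p = 0.579 and 0.184).

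Atf3, a stress-induced partner of Jun proteins that often represses its targets, was at 74.7, 86.9 and 49.2 CPM in Hes1 KO and at 105 and 3.80 CPM in the deeper WT libraries. Its deeper WT libraries differed by the largest ratio of any member, with 610 counts in replicate 2 and 46 in replicate 3. WT replicate 1 had 9 counts, or 136 CPM (71.6 to 259). The groups overlapped, and the log2 fold change was 0.13 (SE 0.74) with 6 libraries and 0.50 (SE 0.84) with 5 (edgeR, Benjamini-Hochberg adjusted p = 0.945 and 0.683).

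Dusp1, a phosphatase that switches MAP kinases off again, was at 321, 331 and 249.5 CPM in Hes1 KO (mean 301 ± 44.6 SD, n = 3) and at 283 and 69.9 CPM in the deeper WT libraries. WT replicate 1 had 12 counts, or 181 CPM (104 to 317). WT replicate 2 lay inside the Hes1 KO range and WT replicate 3 below it. The log2 fold change was 0.65 (SE 0.42) with 6 libraries and 0.49 (SE 0.29) with 5 (edgeR, Benjamini-Hochberg adjusted p = 0.488 and 0.26), and it was above 0 in all 29 alternatives run.

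Nr4a1, an orphan nuclear receptor induced by antigen receptor and stress signals, was at 85.5, 136 and 76.9 CPM in Hes1 KO and at 134 and 12.7 CPM in the deeper WT libraries. WT replicate 1 had 0 of 66167 counts, which allows up to 45.3 CPM, below every Hes1 KO library. WT replicate 2 nevertheless lay near the highest Hes1 KO library, so the groups overlapped. Hes1 KO differed from WT by a log2 fold change of 0.88 (SE 1.05) with 6 libraries and 0.44 (SE 0.58) with 5 (edgeR, Benjamini-Hochberg adjusted p = 0.707 and 0.593).

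**Figure D3:**
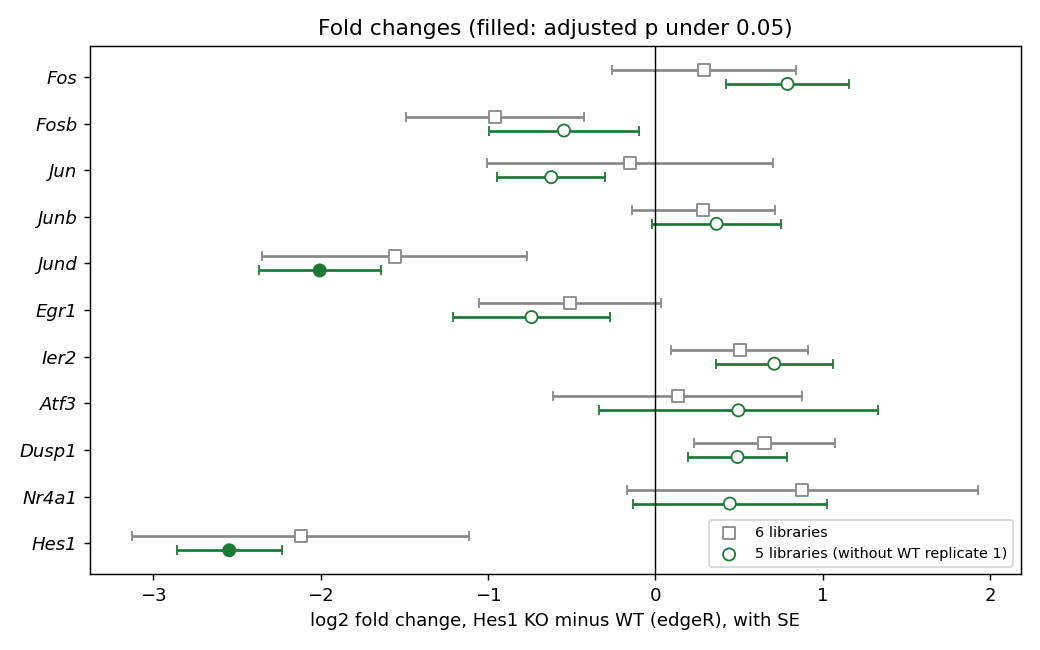
Log2 fold changes between Hes1 KO and WT with their SE for the 10 genes and Hes1, with 6 libraries (squares) and without WT replicate 1 (circles); filled symbols passed an adjusted p of 0.05. With 5 libraries Jund (-2.01) and Hes1 (-2.55) passed, and the other 9 genes lay between -0.74 and 0.79.

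Over 6 libraries the groups overlapped for all 10 genes, on the CPM scale and after TMM scaling. Of all genes tested, 24.7% lay wholly above and 1.02% wholly below in Hes1 KO on the CPM scale, and 22.5% and 5.15% after TMM scaling. Over 5 libraries Fos and Ier2 lay wholly above and Jund wholly below in Hes1 KO on the CPM scale, where 35.1% of all genes lay above and 7.54% below. After TMM scaling Fos and Ier2 were again above, and Jun joined Jund below, where 31.2% of all genes lay above and 24.5% below. With 2 of 10 genes above and 1 or 2 of 10 below, the members' shares were near or under those of all genes.

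Ratios within a library do not depend on scaling, and here genes are set mainly against Fos. Jun was counted 0.628, 0.57 and 0.669 times as often as Fos in Hes1 KO replicates 1, 2 and 3, but 1.46 and 1.9 times as often in WT replicates 2 and 3. In WT replicate 1 that ratio was 0.0513. Jund showed a wider gap, at 0.166, 0.266 and 0.268 times Fos in Hes1 KO against 0.965 and 2.4 in WT replicates 2 and 3, and 0.0769 in WT replicate 1. The deeper WT libraries thus held more Jun and Jund per Fos than every Hes1 KO library, and the shallow one less. Fos itself lay below every Hes1 KO library in both deeper WT libraries, so a gene of equal level would also have a higher ratio to Fos there. The share of all genes whose ratios to Fos do not overlap was not counted. Among the ratios to Fos, Fosb was the gene for which all 3 WT libraries lay above Hes1 KO, at 0.607, 0.832 and 0.494 against 0.324, 0.195 and 0.294 in Hes1 KO. Jund per Jun also lay higher in all 3 WT libraries, at 1.5, 0.663 and 1.26 against 0.264, 0.466 and 0.401 in Hes1 KO, where the value of WT replicate 1 rests on 9 and 6 counts. Egr1 per Fos was higher in both deeper WT libraries (0.527 and 0.263) than in Hes1 KO (0.107 to 0.194), and at 0.0855 in WT replicate 1. Dusp1 per Fos lay just above Hes1 KO (0.265 to 0.381) in the deeper WT libraries, at 0.383 and 0.388, and below it in WT replicate 1, at 0.103. For Junb, Ier2, Atf3 and Nr4a1 the ratios to Fos overlapped between those libraries and Hes1 KO, as the plot of ratios shows. No test was made on these ratios, since 3 libraries against 3 cannot give an exact permutation p below 0.1.

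**Figure D4:**
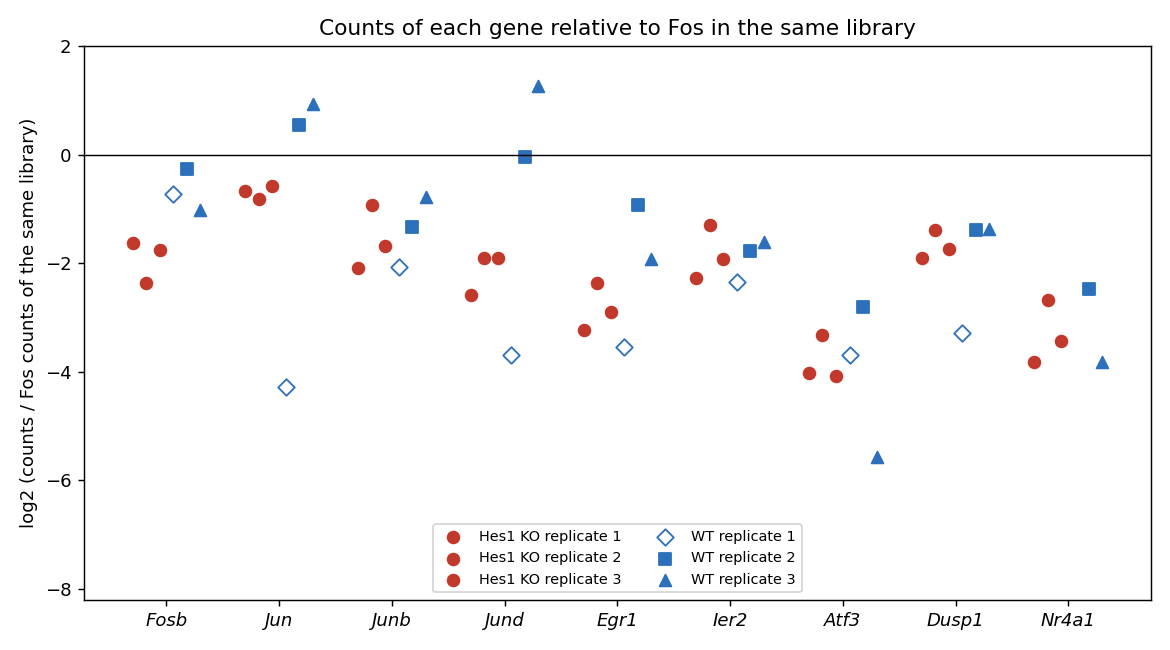
Log2 of the counts of each gene divided by those of Fos in the same library (Hes1 KO circles, WT replicate 1 open diamonds, WT replicate 2 squares, WT replicate 3 triangles; 0 counts not drawn). Jun and Jund stand higher in WT replicates 2 and 3 than in Hes1 KO and lowest in WT replicate 1.

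Levels between genes were compared per kb of exon (GENCODE M21 lengths on GRCm38, of 1522 to 4484 bases). In Hes1 KO, Fos led at 461 ± 98.5 CPM per kb (SD, n = 3). Jun, Junb and Ier2 followed at 189.7 ± 43.3, 185 ± 59.8 and 181 ± 46.5 CPM per kb and did not differ beyond their spread. Jund (131 ± 9.47) and Dusp1 (127 ± 18.8 CPM per kb) were next and did not differ beyond their spread, then Fosb (71.2 ± 30), and Nr4a1, Atf3 and Egr1 closed the order at 37.1, 32.6 and 30.5 CPM per kb. Fos was first of the 10 in all 3 Hes1 KO libraries and in WT replicate 1. In WT replicates 2 and 3, Jund was first instead, at 428 and 259 CPM per kb, while Fos was at 351 and 85.5 CPM per kb, on ranks 2 and 3.

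Other genes of the pathway were counted in 6 lists, and their calls are those of the 5-library fit (edgeR with Benjamini-Hochberg adjustment), since 0 genes passed with 6 libraries. Of all 16190 genes tested in that fit, 7.44% rose and 8.09% fell, the shares beside which the counts of each list stand. The lists were chosen with earlier results of these data known, and no test of a list was run. Genes named below as risen or fallen had adjusted p-values of 0.0294 to 0.0437 in that edgeR fit. Of 13 further AP-1 family genes 12 were tested, 3 rose and 3 fell, with a median log2 fold change of 0.01. Maf and Mafk, large and small Maf proteins that pair with AP-1 subunits, fell, with log2 fold changes of -2.58 (SE 0.34) and -1.75 (SE 0.31). Batf, which pairs with Jun proteins in lymphoid and dendritic cells, rose by 2.05 (SE 0.38). Batf3, needed for some dendritic cells, had 24, 35 and 21 counts in Hes1 KO and 0 in every WT library. Without TMM factors, its mean of 1.25 CPM is at least 7.49-fold higher than the 0.167 CPM that 3 counts make over WT replicates 2 and 3. No such bound was made on the TMM scale of the test.

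Among 34 other immediate early genes 32 were tested, 1 rose and 5 fell, with a median of 0.07. Klf4, a Krüppel-like factor of monocytes, rose by 1.20 (SE 0.26), with 252 to 372 CPM in Hes1 KO against 142 and 48.7 CPM in WT replicates 2 and 3, while 84 counts in WT replicate 1 make 1270 CPM. Zfp36l1, which marks short-lived messages for decay, fell (-2.37, SE 0.25), as did the kinase Plk2 (-1.68, SE 0.21). Arc and the nuclear protein Csrnp1 fell as well, at -1.54 and -1.13. Their median and the count of 6 calls among 32 lie near those of all genes, 0.02 and 15.5%.

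Of 27 upstream kinases and factors all were tested, 4 rose and 4 fell, with a median of -0.27. The MAP kinase cascade members Map2k1 and Mapk3 rose by 1.58 (SE 0.23) and 2.17 (SE 0.37), and Rps6ka1, a kinase further down that cascade, by 1.60 (SE 0.26). Mapk3 was at 175, 278 and 196 CPM in Hes1 KO against 65.2 and 15.5 CPM in the deeper WT libraries and 0 counts in WT replicate 1. Elk4, a partner of serum response factor, fell (-2.68, SE 0.35), and so did the coactivator Crebbp (-1.57, SE 0.22). Without scaling, these 2 were highest in WT replicate 2, the library rich in Malat1, at 169 and 433 CPM against at most 30.2 and 119.9 CPM elsewhere. After TMM scaling both deeper WT libraries stood above Hes1 KO, Elk4 at 124 and 59.1 CPM against 11.6 to 16.04 CPM, and Crebbp at 318 and 238 CPM against 89.2 to 96.9 CPM. Without WT replicate 2 the log2 fold changes of Elk4 and Crebbp were -2.04 and -1.34, in a fit with WT replicate 3 as its only WT library.

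Of 14 feedback regulators of MAP kinase signalling all were tested, 0 rose and 5 fell, with a median of -2.01. Those that fell were all phosphatases: Dusp2 at -1.97 (SE 0.27), Dusp5 at -2.53 (SE 0.37), Dusp8 at -5.96 (SE 1.20), Dusp10 at -3.0 (SE 0.60) and Dusp16 at -3.15 (SE 0.56). Dusp1 of the 10 genes, with 0.49, did not share their sign. Dusp5, Dusp10 and Dusp16 were at 131, 125 and 91.4 CPM in WT replicate 2 and at 19.5, 8.75 and 8.34 CPM in WT replicate 3, against 12 to 16.5, 7.46 to 9.63 and 4.29 to 6.33 CPM in Hes1 KO. Without scaling, WT replicate 3 was thus close to Hes1 KO for these genes, and WT replicate 2 stood apart. After TMM scaling WT replicate 3 was also above Hes1 KO, with Dusp5 at 43.9 against 9.49 to 13.5 CPM, Dusp10 at 19.7 against 5.98 to 7.78 CPM and Dusp16 at 18.8 against 3.40 to 6.01 CPM. Without WT replicate 2 the log2 fold changes of Dusp5, Dusp10 and Dusp16 were smaller in size, at -1.85, -1.50 and -1.95. That fit has WT replicate 3 as its only WT library. Dusp2 was higher in both deeper WT libraries without scaling, at 259 and 133 CPM against 66.0 to 87.6 CPM.

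Of 20 genes known as AP-1 targets 19 were tested, 4 rose and 0 fell, with a median of 1.39. Hmox1, which breaks down haem, rose by 3.57 (SE 0.42), the macrophage lectin Lgals3 by 3.49 (SE 0.62), the chemokine Cxcl2 by 3.56 (SE 0.81) and the inhibitory antibody receptor Fcgr2b by 1.36 (SE 0.21). All 4 are also expressed by macrophages, whose 14 markers summed to 1.02% to 2.01% of counts in Hes1 KO against 0.209% and 0.0174% in WT replicates 2 and 3, with C1qb, C1qc and Mertk not tested. Their part in the result was not tested. In WT replicate 1, Lgals3 and Fcgr2b stood at 635 and 1073 CPM. That lies within the Hes1 KO range for Lgals3 (399 to 779.7 CPM) and above it for Fcgr2b (98.9 to 107 CPM). Of 14 heat shock and chaperone genes, which respond to cell stress, 13 were tested, 0 rose and 1 fell, with a median of 0.27. The one that fell was Dnajb4, at -2.5 (SE 0.49), and the next smallest p was that of the chaperone Hspa5, at 0.66 (SE 0.38, edgeR, Benjamini-Hochberg adjusted p = 0.24).

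**Figure D5:**
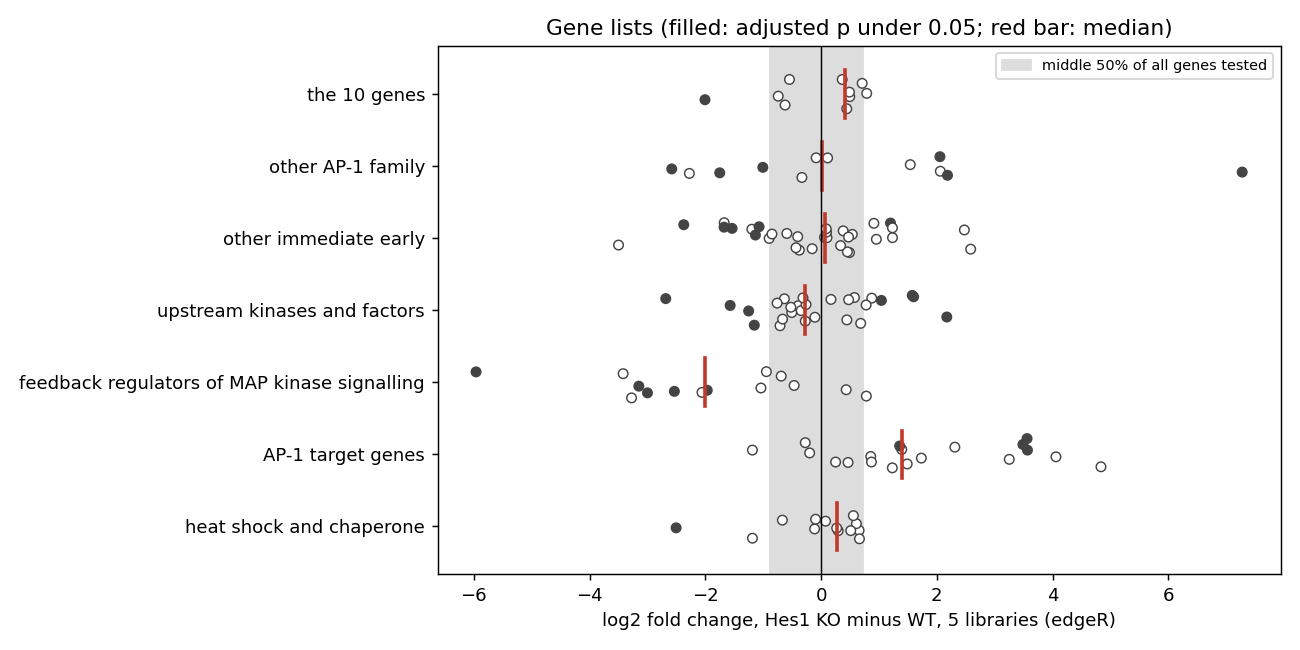
Log2 fold changes between Hes1 KO and WT with 5 libraries for the 10 genes and 6 further lists; each point is a gene tested, filled points passed an adjusted p of 0.05, red bars are medians, and the grey band from -0.88 to 0.72 holds the middle 50% of all genes tested. The median of the 10 genes (0.41) lies inside the band, that of the MAP kinase feedback regulators (-2.01) below it and that of the AP-1 targets (1.39) above it.

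The profiles of the 10 genes over the 5 deeper libraries were compared with their mean. Each gene's TMM-scaled log2 CPM was centred on its own mean, and the mean of the 10 ran from -0.40 in WT replicate 3 to 0.36 in WT replicate 2. Dusp1 lay closest to that mean, at a Euclidean distance of 0.557, and Jund (2.49) and Atf3 (2.12) lay farthest. Among 9271 genes outside the lists with at least 10 CPM, the 6 nearest, Wdr45b, Gdap2, Lats2, Rab22a, Bmt2 and Nck1, lay at distances of 0.172 to 0.216, which such a choice from many genes makes small. Jun, Junb, Jund and Ier2 have a single exon. Single-exon coding genes as a class had a median log2 fold change of 0.11 with 5 libraries, and 5.06% of 237 fell, against 0.15 and 6.37% of 12375 coding genes with introns.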

How the data were processed

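The authors deposited whole-number read counts per gene symbol, and the table's name gives featureCounts as the counter. GRCm39, edgeR and limma are named in the submitters' processing notes, without versions. Aligner, annotation and strand setting are not given in the sources. The kit keeps strand, per the labels, but unless the counting used it, overlapping antisense genes cannot be separated. Groups and replicate numbers come from the sample titles. Counts were filtered with filterByExpr, scaled by TMM and tested with edgeR 4.0.16 (R 4.3.3) by the quasi-likelihood test (legacy option off), Hes1 KO against WT, with Benjamini-Hochberg adjustment over all genes tested and a threshold of 0.05. This was done with 6 libraries and again without WT replicate 1. SE is approximate, the size of the log2 fold change over sqrt(F). CPM is counts per 1000000 of a library's total, without TMM factors unless stated. DESeq2 1.42.0, voom in limma 3.58.1, other scalings and filters, a replicate block and leaving out each library were alternatives. The 10 genes and all lists were chosen with earlier results of these data known. Named genes of a list are up to 5 with the smallest p among those that passed in the 5-library fit, or else the 2 smallest. Of these, 1 gene is not reported here. Vcam1 is in both the stromal and macrophage marker lists, and Mmp8 in both the neutrophil and AP-1 target lists. The test was checked on simulated counts with known changes, and at the spread estimated from these libraries it missed many of them. A gene that did not pass may thus still differ between the groups.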

Additional observations from a re-analysis of the deposited data

How the results depend on the processing

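The 6-library fit called 0 genes and 0 of the 10 in edgeR, except that DESeq2 called 813 genes (0 of the 10) and that leaving out 1 library gave 0 to 2513 genes and 0 to 1 of the 10. The highest value of each is the fit without WT replicate 1. From the 5-library fit's 2513 genes and 1 of the 10, library size alone gave 0 and 0, DESeq2 4997 and 2, limma-voom 1440 and 1, and leaving out 1 library 0 to 6210 genes and 0 to 2 of the 10. The second member besides Jund was Jun in DESeq2, Atf3 without WT replicate 2 and Egr1 without WT replicate 3. With the replicate number as a block, 0 genes passed in either fit, and with 5 libraries Jund lost its call at -1.84 (edgeR, Benjamini-Hochberg adjusted p = 0.281). The numbers were not taken as pairs. The deviations of same-numbered libraries correlated at 0.153, 0.00704 and 0.244 for replicates 1, 2 and 3, against at most 0.0328 for libraries of different number. Replicates 1 and 3 thus lay above every pair of different number, whereas Hes1 KO replicate 2 correlated more with WT replicate 1 (0.0218) than with WT replicate 2. Whether same-numbered libraries share a batch was not tested.

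Signs turned with 6 libraries for Jun (0.25 with library size alone, 0.071 with no filter, 0.32 in limma-voom, 0.35 with the replicate block, 0.07 without WT replicate 2 and 0.17 without WT replicate 3), Junb (-0.23 without Hes1 KO replicate 2), Egr1 (0.13 without WT replicate 2) and Atf3 (-0.16 with library size alone, -0.032 at 10 CPM in 2 libraries, -0.23 without Hes1 KO replicate 2 and -0.38 without WT replicate 3). With 5 libraries they turned for Fosb (0.17) and Egr1 (0.15) without WT replicate 2, Junb (-0.16) and Nr4a1 (-0.07) without Hes1 KO replicate 2, and Atf3 (-0.31) and Nr4a1 (-0.14) without WT replicate 3. Leaving out 1 library gave, with 6 libraries, -0.62 to 0.17 for Jun, -0.23 to 0.47 for Junb, -0.89 to 0.13 for Egr1 and -0.38 to 0.56 for Atf3. With 5 libraries it gave -0.99 to 0.17 for Fosb, -0.16 to 0.51 for Junb, -1.24 to 0.15 for Egr1, -0.31 to 2.83 for Atf3 and -0.14 to 1.60 for Nr4a1. The cause was not tested. With library size alone, all genes tested had a median of 0.26 with 6 libraries and 0.44 with 5. Fos, Ier2, Dusp1 and Jund kept their sign in all alternatives of both fits. The depth of WT replicate 1 limits what it shows: 3 counts there make 45.3 CPM.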
